A study of Homo sapiens with 60 samples.

Results

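The genes of tissue factor, its inhibitors, the fibrinogen chains and the plasminogen activators were followed in A549, a cell line grown from a human lung tumour, after 24 h of exposure to herbal extracts. The 9 genes were TFPI, TFPI2, F3, FGA, FGB, FGG, PLAU, PLAUR and PLAT. They were chosen by name, with the TFPI level at the high dose of Schisandrae Fructus and Soshiho-tang already known, so TFPI at those 2 high doses is given as a description with no test and is left out of the counts there. All 9 were among the 60675 genes of the count table, and all 9 were among the 17826 genes that passed the filter on low counts.

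RNA was sequenced in 60 libraries of 25 groups, made of vehicle and of 3 doses (high, medium, low) for each of 8 extracts. The vehicle group had 3 libraries, labelled as 0.1% DMSO, whereas the design text of the series gives 2% DMSO for it. Water extracts of the decoctions Yijin-tang and Soshiho-tang had 3 and 2 libraries a dose, ethanol extracts of Zizyphi Semen, Longan Arillus, Schisandrae Fructus and Liriopis seu Ophiopogonis Tuber had 3, and ethanol extracts of Polygalae Radix and Aucklandiae Radix had 1. From high to low the doses of Polygalae Radix were 380, 76 and 15.2 µg/mL, those of Aucklandiae Radix 370, 74 and 14.8 µg/mL, and those of the other 6 extracts 500, 100 and 20 µg/mL. The library names carry a set number, and vehicle alone has C1. The decoctions Yijin-tang and Soshiho-tang have set 8, while Liriopis seu Ophiopogonis Tuber shares set 9 with Schisandrae Fructus, Longan Arillus shares set 10 with Zizyphi Semen, and the 2 extracts with 1 library a dose share set 11. A difference from vehicle and a difference between sets therefore cannot be told apart, and the high dose was therefore set against the low dose of its own extract too, within 1 set. The labels do not say that libraries of a group came from separate cultures, so a p-value here reflects only how these libraries spread, which may be technical.

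Blood clots when tissue factor (F3) on a cell surface binds factor VII and starts the cascade that ends with thrombin cutting fibrinogen into fibrin. Tissue factor pathway inhibitor (TFPI) blocks the tissue factor complex, and its relative TFPI2 is a secreted inhibitor of plasmin and other serine proteases. Fibrinogen is built from the chains encoded by FGA, FGB and FGG, neighbours in 1 gene cluster that the liver transcribes strongly in the acute phase under interleukin 6. Fibrin is dissolved by plasmin, which urokinase (PLAU), bound to its receptor (PLAUR), and tissue plasminogen activator (PLAT) release from plasminogen.

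The fibrinogen genes were lower together at the high dose of Yijin-tang, and any part of interleukin 6 in that was not tested. The stretch of each promoter that holds the motif known from their response to interleukin 6 is shown. The bases run from 180 to 81 bases before the RefSeq transcript start on build GRCh38.p14, 5′ to 3′ on the strand of the gene, with the motif CTGGGA in capitals. FGA is read from chr4:154590823-154590922 on the minus strand, FGB from chr4:154562800-154562899 on the plus strand and FGG from chr4:154612737-154612836 on the minus strand.
FGA: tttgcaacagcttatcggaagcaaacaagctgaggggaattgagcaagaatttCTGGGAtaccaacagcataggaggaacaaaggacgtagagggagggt
FGB: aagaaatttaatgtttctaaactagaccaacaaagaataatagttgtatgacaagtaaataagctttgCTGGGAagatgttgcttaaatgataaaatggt
FGG: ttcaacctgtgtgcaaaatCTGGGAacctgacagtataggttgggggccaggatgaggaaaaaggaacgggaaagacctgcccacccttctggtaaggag
The last base of CTGGGA lies 122 bases before the start of FGA, 107 before that of FGB and 156 before that of FGG. Before another RefSeq start of FGB the same match lies at 138 bases. FGG holds 1 more match on the strand opposite to the gene, 37 bases before its start and outside the stretch shown. It is a short motif, and on either strand 28.7% of the 35116 RefSeq promoter windows, searched over the 250 bases before each start, held it. The search for CTGGGA was added after the data were seen. Promoter windows were found for 8 of the 9 genes, and among the other genes PLAUR also held CTGGGA. A STAT motif (TTCNNNGAA, held by 6.57% of windows) was found in FGA, an AP-1 motif (TGANTCA, 6.57%) in TFPI2, F3 and PLAUR, an AHR motif (GCGTG, 32.2%) in PLAU and PLAUR, and a CEBP motif (TTNNGNAA, 33.2%) in TFPI, all 3 fibrinogen genes, PLAU and PLAUR. These matches are letters in a window and show no binding.

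Library totals were 18 to 33.8 M counts (M for mega), with a median of 23.9 M. Levels are counts per M counts of the library (CPM), scaled by TMM factors. Longan Arillus low replicate 3 and Soshiho-tang medium replicate 3 stood apart in that their counts fell with transcript length. The slope on log2 scales was -0.220 and -0.167 for each doubling, taken across 13818 genes, where the other 58 libraries had slopes of -0.0396 to 0.106. The highest was that of the 1 Polygalae Radix high library, and the next was 0.0186. With the 2 libraries that stood apart in the fit the common dispersion was 0.0173, and without them it was 0.00244. Counts of called genes are therefore given for the 54 libraries of the replicated groups and for 52 libraries without these 2. A gene was called at an adjusted p below 0.05 (edgeR quasi-likelihood test, Benjamini-Hochberg over all genes tested). Where the libraries of 2 groups did not overlap, the share of all genes without overlap is not given. Such statements describe the libraries only. The A549-like markers, epithelial and detoxification genes, summed to 17698 to 18072 CPM in vehicle. Of the 8 hepatocyte markers, which leave out fibrinogen, 7 were under 1 CPM in vehicle, with ALB at 0.0231 and TTR at 0.0114 CPM. The vehicle libraries summed to 4.08 to 4.94 CPM of these, of which APOH made 4.21 CPM. The 6 endothelial markers summed to 4.62 to 4.82 CPM, with 5 under 1 CPM and ESAM at 4.41 CPM, and the 6 megakaryocyte markers to 7.86 to 8.58 CPM, with 4 under 1 CPM, GP1BA at 5.24 CPM and ITGA2B at 1.99 CPM. The 6 leukocyte markers summed to 13.6 to 15.5 CPM, with 4 under 1 CPM and CD68 at 12.3 CPM, and the 6 fibroblast markers to 34.9 to 35.8 CPM, with 4 under 1 CPM and COL1A1 at 29.6 CPM.

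Without extract, A549 cells carried much fibrinogen RNA and little RNA of tissue factor or tissue plasminogen activator. In vehicle, FGB was at 220.2 ± 4.6 CPM (SD, n = 3), FGA at 191 ± 6.4 CPM (SD, n = 3) and FGG at 129.6 ± 3.7 CPM (SD, n = 3). TFPI2 was at 83.5 ± 3.0 CPM (SD, n = 3), TFPI at 69.0 ± 1.3 CPM (SD, n = 3) and PLAU at 49.9 ± 0.54 CPM (SD, n = 3). PLAUR was at 20.3 ± 0.64 CPM (SD, n = 3), F3 at 2.34 ± 0.21 CPM (SD, n = 3) and PLAT at 2.00 ± 0.11 CPM (SD, n = 3). Per kilobase of annotated exon, the levels ran from FGB (81.3 CPM), FGA (48.2), FGG (36.0), TFPI2 (31.2) and PLAU (16.9) to TFPI (5.89), PLAUR (4.55), F3 (0.813) and PLAT (0.303). The order depends on the length used: per kilobase of the median transcript, TFPI was at 89.8 and FGA at 84.8 CPM, while FGB (227) stayed first and F3 (1.52) and PLAT (1.23) last. No neighbours in the exon order had vehicle libraries that overlapped on that scale.

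On build GRCh38 (GENCODE 29), FGB lies at chr4:154562956-154571086 on the plus strand, FGA at chr4:154583126-154590766 on the minus strand and FGG at chr4:154604134-154612967 on the minus strand. TFPI lies at chr2:187464230-187565760 on the minus strand, TFPI2 at chr7:93885396-93890991 on the minus strand and F3 at chr1:94529225-94541800 on the minus strand. PLAU lies at chr10:73909177-73917497 on the plus strand, PLAUR at chr19:43646095-43670547 on the minus strand and PLAT at chr8:42175233-42207724 on the minus strand. TFPI overlaps AC007319.1, TFPI2 overlaps GNGT1 and AC002076.1, and PLAU overlaps C10orf55, each on the opposite strand, and PLAUR overlaps RN7SL368P on its own strand. The kit was directional per the labels, but the strand setting of the counting is not given in the sources used here, so a share of the counts of TFPI, TFPI2 and PLAU could belong to the neighbour, and strand would not part PLAUR from RN7SL368P.

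TFPI RNA was highest in Aucklandiae Radix high, then in the high doses of Soshiho-tang and Schisandrae Fructus, and lowest in vehicle. The vehicle libraries stood at 70.0, 67.5 and 69.5 CPM. Soshiho-tang high stood at 94.6 and 102 CPM, its medium dose at 75.3 and 72.7 CPM and its low dose at 81.4 and 80.0 CPM. The high dose thus lay above every other library of that extract, and the medium dose lay below the low dose. Schisandrae Fructus high stood at 90.8, 92.7 and 91.9 CPM, medium at 86.0, 75.8 and 83.2 CPM and low at 79.5, 76.6 and 77.8 CPM, so that only its high dose was clear of the other 2. The mean at the high dose was 1.42-fold the vehicle level for Soshiho-tang and 1.33-fold for Schisandrae Fructus. Against their own low doses the folds were 1.22 and 1.18. These values led to the choice of the genes and carry no test.

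Part of the difference of TFPI from vehicle was seen at the low doses of the extracts. In the low-dose groups of the 6 replicated extracts the mean ranged from 76.0 to 80.7 CPM, all above the 69.0 CPM of vehicle. The vehicle libraries were part of the values that led to the choice of TFPI, so its levels against vehicle are a description and carry no test. The means of the medium doses of these extracts lay between 73.8 and 81.7 CPM. Between the high and the low dose of Yijin-tang, Liriopis seu Ophiopogonis Tuber, Longan Arillus and Zizyphi Semen, TFPI was not called by edgeR with either fit, with log2 differences between -0.09 and 0.06 with 52 libraries.

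With 52 libraries, the interval of 2 SE either side of the log2 difference ran from -0.17 to 0.04 in Yijin-tang and from -0.11 to 0.10 in Zizyphi Semen. TFPI2 was near its vehicle level in most groups. Its libraries stood at 83.6, 86.5 and 80.5 CPM in vehicle, at 75.8, 76.1 and 76.1 CPM in Zizyphi Semen high and at 88.5, 91.6 and 94.1 CPM in Schisandrae Fructus high. The Zizyphi Semen libraries lay below and those of Schisandrae Fructus above all vehicle libraries. With 54 libraries edgeR called 0 of the 18 comparisons with vehicle for TFPI2 (2 at an unadjusted p below 0.05, 1 by DESeq2), and with 52 the lower level in Zizyphi Semen high was called, at a log2 fold change of -0.14 (SE 0.05, adjusted p = 0.0437). That call was lost without 5 of the 6 libraries in turn, all but vehicle replicate 3, and DESeq2 called 0 of the 18 with 52 libraries. Soshiho-tang medium replicate 3, which stood apart, had 112 CPM of TFPI2, the highest value of any library.

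**Figure D1:**
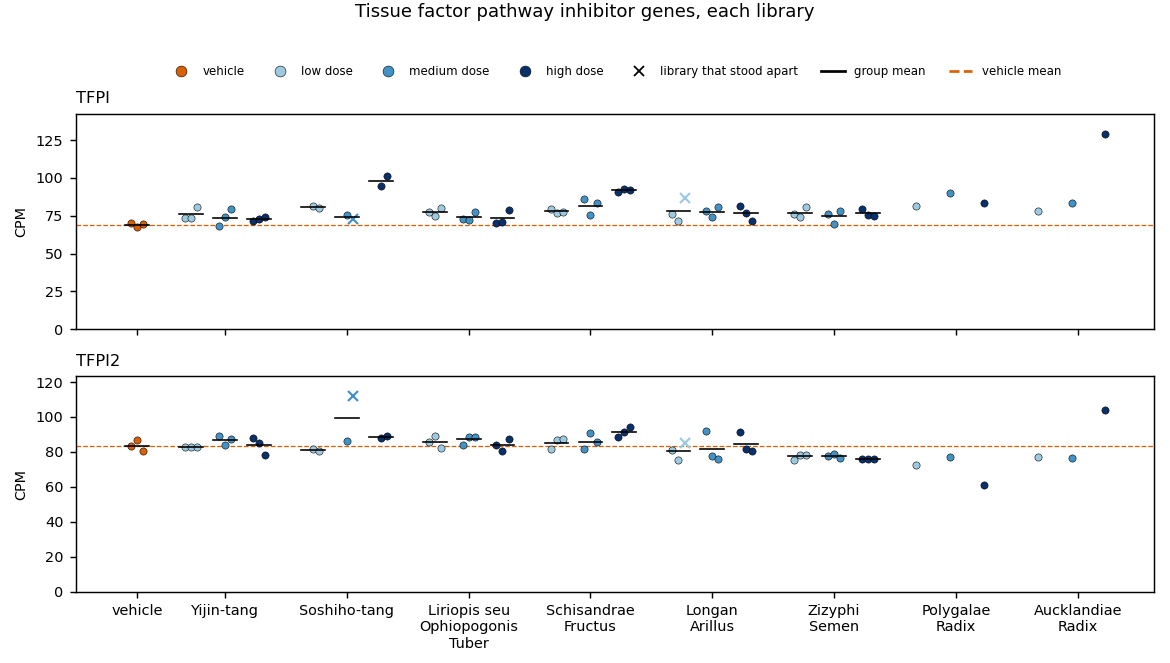
TFPI (upper panel) and TFPI2 (lower panel) in each of the 60 libraries, as TMM-scaled CPM on an axis from 0. Each point is 1 library, coloured by dose, short lines are group means, the dashed line is the vehicle mean and crosses are the 2 libraries that stood apart. TFPI stood at 90.8, 92.7 and 91.9 CPM in Schisandrae Fructus high, 94.6 and 102 CPM in Soshiho-tang high and 129 CPM in Aucklandiae Radix high, above the vehicle libraries.

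Tissue factor, the receptor that starts clotting, was scarce throughout. F3 had 30 to 81 counts in a library, and the vehicle libraries stood at 2.57, 2.16 and 2.28 CPM. Of the 18 comparisons with vehicle, edgeR called 0 for F3 with either fit, at an unadjusted p below 0.05 it had 0 with either, and DESeq2 called 0 with either. The high dose of Longan Arillus stood at 1.89, 2.11 and 1.93 CPM and its low dose at 2.90, 2.46 and 2.93 CPM, without overlap. With 54 libraries this log2 difference was called at -0.48 (SE 0.17, adjusted p = 0.0470), and with 52 it was -0.44 (SE 0.19, adjusted p = 0.386), no longer past the threshold. The call was also lost in the fit with 54 libraries when any library except Longan Arillus low replicate 2 was left out.

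With 52 libraries all 3 fibrinogen chains were called lower at the high than the low dose of Yijin-tang and Zizyphi Semen, by 0.16 to 0.35 on the log2 scale. A fall was not particular to these 2 extracts. Over the 6 comparisons of high with low dose, FGA and FGB had an unadjusted edgeR p below 0.05 in 5 and FGG in 4. In Liriopis seu Ophiopogonis Tuber, where no chain was called, FGB ranged from 210 to 223 CPM at the high and 233 to 248 CPM at the low dose. The chains were far lower at the high dose of Polygalae Radix, which had no replicates. Yijin-tang high had the lowest fibrinogen of the replicated groups. FGA stood there at 159, 157 and 161 CPM, against 186, 184 and 182 CPM at the medium and 195, 197 and 200.1 CPM at the low dose. FGB stood at 181, 185 and 197 CPM at the high, 221, 215 and 216 CPM at the medium and 229, 234 and 241 CPM at the low dose. FGG stood at 108, 111 and 113 CPM at the high, 129.7, 124 and 121 CPM at the medium and 131, 145 and 148 CPM at the low dose. For all 3 chains the high-dose libraries lay below every library of the other 2 doses and below every vehicle library. The share of all genes so separated is not given here. In a culture measured as a whole, fewer cells with fibrinogen RNAs and less of these RNAs per cell cannot be told apart.

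With 52 libraries, edgeR called all 3 chains lower in Yijin-tang high than low, with log2 fold changes of -0.31 (SE 0.04, adjusted p = 3.02e-07) for FGA, -0.32 (SE 0.04, adjusted p = 6.77e-08) for FGB and -0.35 (SE 0.04, adjusted p = 6.77e-08) for FGG. With 54 libraries the same differences were -0.31 (SE 0.11, adjusted p = 0.835), -0.32 (SE 0.08, adjusted p = 0.0725) and -0.35 (SE 0.08, adjusted p = 0.0632), so none was called, although all 3 had an unadjusted p below 0.05 and DESeq2 called 2 of them. The SE of FGA was the largest of the 3 with 54 libraries, and Longan Arillus low replicate 3 had 99.3 CPM of FGA beside 197 and 191 CPM in the other 2 of its group. Of all genes, 0.146% were called between these doses with 54 libraries and 0.987% with 52. The 3 calls with 52 libraries held when each of the 6 Yijin-tang libraries was left out in turn. Against vehicle, 0 of 9 genes were called with 54 libraries (0.544% of all genes, 3 of the 9 at an unadjusted p below 0.05, 0 by DESeq2) and 3, again the fibrinogen chains and all lower, with 52 (7.17% of all genes).

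Zizyphi Semen gave a smaller difference of the same direction between its doses. FGB stood at 224, 216 and 222 CPM at the high and 249, 258 and 259 CPM at the low dose. FGG stood at 137, 128 and 125 CPM at the high and 148, 152 and 147 CPM at the low dose, and FGA at 171, 171 and 168 against 189.5, 193 and 188 CPM. For each chain all high-dose libraries were below all low-dose libraries, and the share of all genes so separated is not given here. With 54 libraries 0 of 9 genes were called (0.028% of all genes, 2 of the 9 at an unadjusted p below 0.05, 0 by DESeq2), and with 52 the 3 chains were called lower (1.15% of all genes), with log2 fold changes of -0.16 (SE 0.04, adjusted p = 0.0196) for FGA, -0.21 (SE 0.04, adjusted p = 6.69e-04) for FGB and -0.20 (SE 0.04, adjusted p = 0.00481) for FGG. The FGA call was lost when any 1 of the 6 libraries was left out and the FGG call without Zizyphi Semen high replicate 3. The FGB call was kept each time. Against vehicle, FGB had a log2 fold change of 0.21 (SE 0.04, adjusted p = 2.30e-05) at the low dose and 0.01 (SE 0.04, adjusted p = 0.943) at the high dose of Zizyphi Semen with 52 libraries, so it was the low dose that stood above vehicle. This was not particular to Zizyphi Semen. Mean FGB was 234 CPM in Yijin-tang low, 237 in Soshiho-tang low, 240 in Liriopis seu Ophiopogonis Tuber low and 241 in Schisandrae Fructus low. It was 220 CPM in vehicle. In Longan Arillus low the mean was 219 CPM with the library that stood apart, at 164 CPM, and the other 2 libraries stood at 244 and 250 CPM. Longan Arillus high ranged from 215 to 223 CPM. Over the 18 comparisons with vehicle and 52 libraries, FGB was called higher in 5, FGG in 4 and FGA in 0, and they were called lower in 1, 1 and 3. With 54 libraries edgeR called 0 of these for each chain, with 2, 3 and 3 of the 18 at an unadjusted p below 0.05 for FGA, FGB and FGG, and DESeq2 called 0, 1 and 1. For any gene and dose, the share called higher was 4.97% and the share called lower 6.53% with 52 libraries, and 2.12% and 1.52% with 54.

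In Soshiho-tang the chains parted. FGA stood at 154 and 171 CPM at the high and 189 and 199.9 CPM at the low dose, without overlap. FGB stood at 226 and 238 against 235 and 239.5 CPM, and FGG at 127 and 139 against 138 and 138 CPM, both overlapping. With 52 libraries the log2 fold change of FGA was -0.26 (SE 0.05, adjusted p = 9.94e-05), that of FGB -0.03 (SE 0.05, adjusted p = 0.777) and that of FGG -0.05 (SE 0.05, adjusted p = 0.639). With 54 libraries FGA was -0.26 (SE 0.13, adjusted p = 0.612) and was not called. FGB and FGG at the high dose also differed between Yijin-tang and Soshiho-tang, which share a set and a dose. Of 8 genes counted there, 0 were called with 54 libraries (1.19% of all genes, 2 of the 8 at an unadjusted p below 0.05, 1 by DESeq2), and 3 were lower in Yijin-tang with 52 (8.37% of all genes), namely FGB, FGG and PLAUR.

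The difference between these 2 decoctions was tested as the Yijin-tang change from low to high dose minus that of Soshiho-tang. With 52 libraries it was -0.29 (SE 0.06, adjusted p = 0.00151) for FGB and -0.30 (SE 0.06, adjusted p = 0.00285) for FGG on the log2 scale in edgeR's test, and -0.05 (SE 0.06, adjusted p = 0.823) for FGA. With 54 libraries it was -0.29 (SE 0.12, adjusted p = 0.851), -0.30 (SE 0.13, adjusted p = 0.897) and -0.05 (SE 0.17, adjusted p = 1.000), with 0 of 8 genes called (0.286% of all genes, 4 of the 8 at an unadjusted p below 0.05, 0 by DESeq2) against 3 with 52 (2.58% of all genes). The third gene was PLAUR, at -0.44 (SE 0.10, adjusted p = 0.00329) with 52 libraries. These differences of changes were not refitted with libraries left out.

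**Figure D2:**
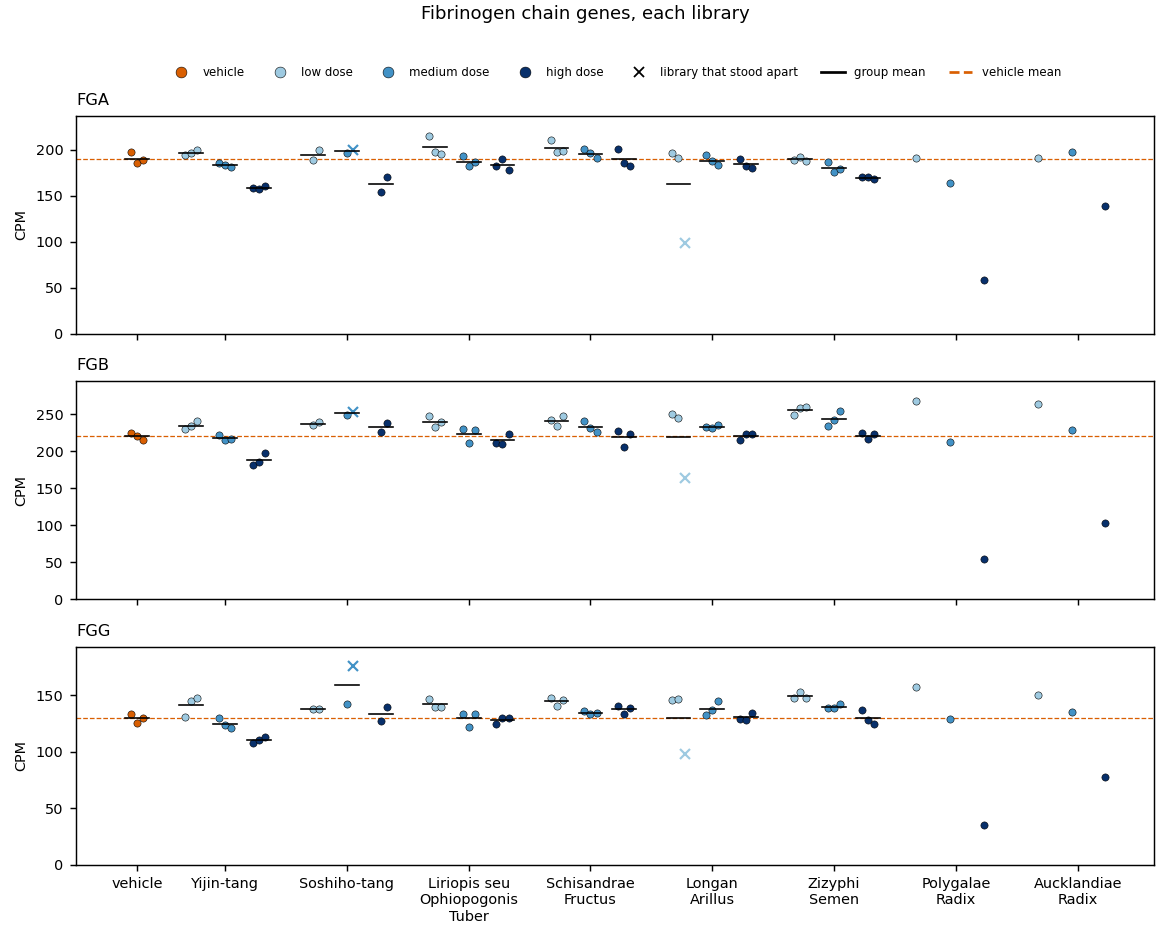
FGA, FGB and FGG in each of the 60 libraries, as TMM-scaled CPM on axes from 0, 1 panel a gene. Points are libraries coloured by dose, short lines are group means, the dashed line is the vehicle mean and crosses are the 2 libraries that stood apart. The high-dose libraries of Yijin-tang lie below its other libraries in all 3 panels, those of Soshiho-tang in the FGA panel, and the Polygalae Radix high library is the lowest of all.

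The ratio of the chains does not depend on how libraries are scaled. FGA counts per FGB count, from CPM, were 0.881, 0.840 and 0.876 in vehicle and 0.878, 0.849 and 0.817 in Yijin-tang high, which overlapped. In Soshiho-tang the ratio was 0.682 and 0.717 at the high and 0.804 and 0.834 at the low dose. In Zizyphi Semen it was 0.763, 0.790 and 0.755 at the high and 0.760, 0.748 and 0.724 at the low dose, all below the vehicle libraries. The 2 extracts with 1 library a dose had the highest ratios, 1.06 in Polygalae Radix high and 1.35 in Aucklandiae Radix high, against 0.715 and 0.724 at their low doses. FGG per FGB stayed between 0.558 and 0.693 in the replicated groups, where the highest value was that of Soshiho-tang medium replicate 3, and was 0.647 and 0.755 in those 2 high-dose libraries. Over the means of the 19 replicated groups, log2 CPM of FGB and FGG had a Pearson correlation of 0.939 (0.948 without the 2 libraries), FGA and FGB of 0.617 (0.622), and FGA and FGG of 0.663 (0.701). These are descriptions over groups that share sets, and no test was made.

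**Figure D3:**
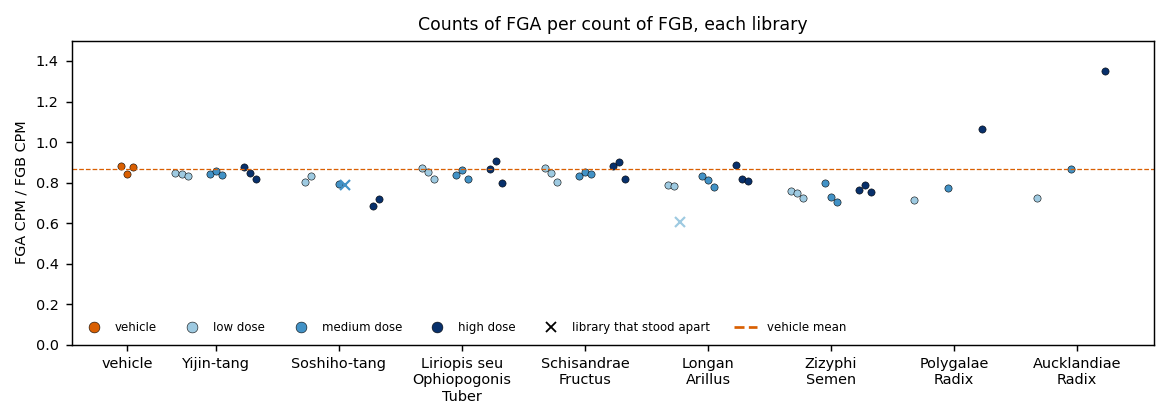
FGA CPM divided by FGB CPM (vertical axis, from 0) in each of the 60 libraries, by group, with the vehicle mean as a dashed line and crosses for the 2 libraries that stood apart. The ratio is lower at the high dose of Soshiho-tang than at its other doses, and is higher at each higher dose in the libraries of Polygalae Radix and Aucklandiae Radix.

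The largest differences in fibrinogen and urokinase RNA were in Polygalae Radix, which had 1 library a dose and therefore no test. At 15.2, 76 and 380 µg/mL, FGA stood at 191, 164 and 58.4 CPM, FGB at 268, 212 and 54.8 CPM, and FGG at 158, 129 and 35.5 CPM. Most of the difference lay between the medium and the high dose. PLAU was also lower at each higher dose, with 38.1, 26.8 and 16.8 CPM. At the high dose the levels relative to the vehicle mean were 0.306-fold for FGA, 0.249-fold for FGB, 0.274-fold for FGG and 0.337-fold for PLAU. These 4 of the 9 genes were lower by 2-fold or more on the scale of CPM plus 1, and 0 were higher by that much, where 8.15% of all genes tested were lower by 2-fold or more. TFPI2 stood at 61.1 CPM, PLAT at 1.17, F3 at 1.71, PLAUR at 23.2 and TFPI at 83.5 CPM.

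Scaling matters for that library. Without TMM factors the median log2 ratio of all genes tested to vehicle moved from 0.01 to 0.23. The log2 ratios of FGA, FGB, FGG and PLAU, -1.69, -1.99, -1.84 and -1.51 with TMM factors, were then -1.39, -1.68, -1.54 and -1.22, still past 2-fold, and that of TFPI moved from 0.27 to 0.58. The A549-like markers summed to 4679 CPM in this library, 10904 CPM at the medium and 15549 CPM at the low dose. The hepatocyte markers, carried by APOH, summed to 1.03 CPM at the high dose, and the vehicle libraries had 4.08 to 4.94 CPM. The endothelial markers summed to 1.64 CPM, the leukocyte markers to 4.52, the fibroblast markers to 17.3 and the megakaryocyte markers to 9.03 CPM at the high dose. Counts in this library were also higher for longer transcripts, with the slope of 0.106 given above. The part of these shifts in the levels of the fibrinogen and other genes was not tested.

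Aucklandiae Radix showed another mix, with lower fibrinogen and higher TFPI and PLAU at its high dose. At 14.8, 74 and 370 µg/mL, FGA stood at 191, 198 and 139 CPM, FGB at 264, 229 and 103 CPM, and FGG at 151, 135 and 77.6 CPM. FGB alone was lower than vehicle by 2-fold or more, 1 of the 9 genes, where 0.712% of all genes tested were lower by that much. TFPI stood at 78.1, 83.4 and 129 CPM, so the high dose was 1.87-fold vehicle and 1.65-fold the low dose. PLAU stood at 36.5, 39.4 and 61.5 CPM, 1.69-fold from the low to the high dose. PLAU thus went down with dose in Polygalae Radix and up in Aucklandiae Radix, in 3 libraries each. TFPI2 stood at 104 CPM and PLAUR at 25.8 CPM at the high dose. Without TMM factors the log2 ratio of TFPI to vehicle moved from 0.90 to 0.95 and that of FGB from -1.09 to -1.04. At the high dose the A549-like markers summed to 10849 CPM, the hepatocyte markers to 2.44 (vehicle 4.08 to 4.94), the leukocyte markers to 32.7 (vehicle 13.6 to 15.5) and the fibroblast markers to 24.1 CPM (vehicle 34.9 to 35.8). The endothelial markers summed to 5.06 and the megakaryocyte markers to 9.20 CPM there. Of the leukocyte markers, CD68 reached at most 27.6, CD14 4.97 and LYZ 2.30 CPM in any of the 60 libraries. PTPRC, CD3E and TYROBP reached at most 0.0847, 0.0702 and 0.176 CPM. The part of the marker sums in these levels was not tested. The highest doses of the 2 extracts differ from each other and from those of the other extracts, so the levels are set side by side only.

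Urokinase RNA was lower than in vehicle in most groups of sets 9 and 10, and its difference between high and low dose was called in Soshiho-tang alone. The vehicle libraries stood at 50.2, 50.2 and 49.3 CPM. The low doses stood at 45.7, 44.0 and 46.5 CPM in Liriopis seu Ophiopogonis Tuber, 39.5, 44.6 and 45.0 CPM in Schisandrae Fructus, 40.4, 38.2 and 37.9 CPM in Longan Arillus and 40.2, 44.0 and 37.4 CPM in Zizyphi Semen, all below vehicle. In Yijin-tang low they stood at 48.9, 51.9 and 48.0 CPM, around the vehicle level. Soshiho-tang low, at 40.6 and 47.8 CPM, lay below all vehicle libraries. So did the low-dose library of Polygalae Radix (38.1 CPM) and that of Aucklandiae Radix (36.5 CPM). Over the 18 comparisons with vehicle, PLAU was called lower in 4 with 54 libraries and in 8 with 52, and higher in 0 by either fit. For any gene and dose the share called lower was 1.52% with 54 libraries and 6.53% with 52. The 4 calls with 54 libraries were the medium and low doses of Longan Arillus and Zizyphi Semen, with log2 fold changes from -0.36 to -0.28 and adjusted p values from 1.98e-04 to 0.0115 in edgeR's test. These comparisons share the vehicle libraries, and the set cannot be told apart from the extract in them.

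A higher PLAU at the high than the low dose was not particular to Soshiho-tang. It ranged from 39.5 to 45.0 CPM at the low and 46.4 to 51.4 CPM at the high dose of Schisandrae Fructus. In Longan Arillus the ranges were 37.9 to 40.4 and 42.8 to 44.7 CPM. Only in Liriopis seu Ophiopogonis Tuber was the high-dose mean lower, 41.3 against 45.4 CPM. Over the 6 replicated extracts, the unadjusted edgeR p was below 0.05 in 4 with 54 libraries and 5 with 52. Within a set, PLAU stood at 56.2 and 53.0 CPM in Soshiho-tang high and 40.6 and 47.8 CPM in Soshiho-tang low, without overlap. This was the 1 gene of 8 counted that edgeR called between these doses with 54 libraries (1.58% of all genes), at a log2 fold change of 0.31 (SE 0.08, adjusted p = 0.0428). The call was lost without Soshiho-tang high replicate 2, high replicate 3 or low replicate 2, when the value ranged from 0.19 to 0.35. With 52 libraries 3 of 8 were called (9.51% of all genes), PLAU higher at 0.30 (SE 0.07, adjusted p = 0.00249), PLAUR higher at 0.30 (SE 0.07, adjusted p = 0.00428) and FGA lower as given above. There the PLAU call was lost without high replicate 2 or low replicate 2, and the PLAUR call without high replicate 2 or low replicate 3. Liriopis seu Ophiopogonis Tuber and Schisandrae Fructus differed at the high dose, with PLAU at 42.9, 41.6 and 39.2 against 46.4, 51.4 and 48.3 CPM and a log2 difference of -0.24 (SE 0.06, adjusted p = 0.0129) with 52 libraries and -0.24 (SE 0.07, adjusted p = 0.383) with 54. Of 8 genes counted there, 0 were called with 54 libraries (0.0561% of all genes, 1 of the 8 at an unadjusted p below 0.05, 0 by DESeq2) and 1 with 52 (2.97%), and that call was lost without Schisandrae Fructus high replicate 2 or Liriopis seu Ophiopogonis Tuber high replicate 3.

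The urokinase receptor was near the vehicle level in most groups. The vehicle libraries of PLAUR stood at 19.7, 21.0 and 20.2 CPM, and Soshiho-tang high at 27.0 and 24.7 CPM stood above its low dose at 21.3 and 20.7 CPM. Against vehicle, the log2 fold change of PLAUR in Soshiho-tang high was 0.35 (SE 0.07, adjusted p = 6.60e-05) with 52 libraries and 0.35 (SE 0.19, adjusted p = 0.368) with 54. The highest PLAUR values were those of the 2 libraries that stood apart, 52.4 CPM in Longan Arillus low replicate 3, beside 21.2 and 21.5 CPM in its group, and 36.0 CPM in Soshiho-tang medium replicate 3. The PLAUR call in Longan Arillus high against low with 54 libraries, -0.57 (SE 0.17, adjusted p = 0.0198), rests on the former and was -0.01 without it. PLAT, the tissue plasminogen activator, had 20 to 75 counts in a library. In vehicle it stood at 1.96, 2.13 and 1.93 CPM, and in Zizyphi Semen medium, its highest replicated group, at 2.59, 2.48 and 3.25 CPM. That difference was 0.45 (SE 0.14, adjusted p = 0.0145) on the log2 scale in edgeR's test with 52 libraries and 0.46 (SE 0.15, adjusted p = 0.0645) with 54. DESeq2 called 0 of the 18 comparisons with vehicle for PLAT, with 54 libraries and with 52.

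**Figure D4:**
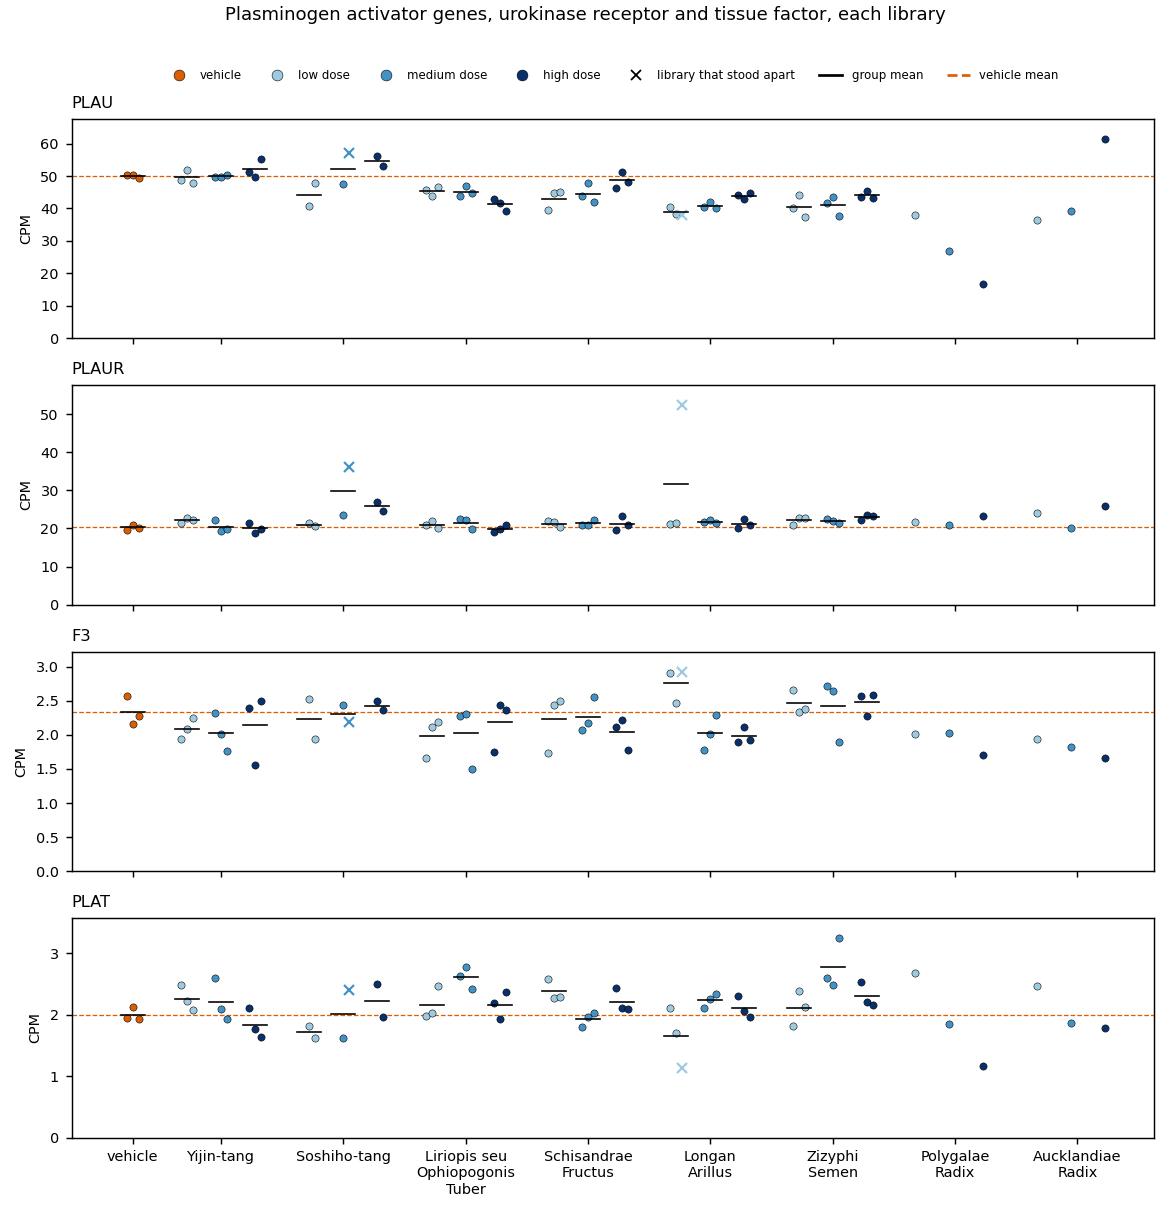
PLAU, PLAUR, F3 and PLAT in each of the 60 libraries, as TMM-scaled CPM on axes from 0, 1 panel a gene. Points are libraries coloured by dose, short lines are group means, the dashed line is the vehicle mean and crosses are the 2 libraries that stood apart. PLAU descends with dose in Polygalae Radix and ascends in Aucklandiae Radix, and both crosses are the highest PLAUR values.

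The remaining comparisons of a high dose gave few calls among the 9 genes, and each count is set beside the share of all genes called. In Soshiho-tang high against vehicle, 0 of 8 were called with 54 libraries (5.08% of all genes) and 2 with 52 (21.5%), FGA lower and PLAUR higher. In Liriopis seu Ophiopogonis Tuber high against vehicle, 0 of 9 were called with 54 libraries (0.32%) and PLAU alone, lower, with 52 (7.27%), where its log2 fold change was -0.27 (SE 0.06, adjusted p = 0.00147). In Schisandrae Fructus high against vehicle, 0 of 8 were called with either (1.02% and 9.15%). In Longan Arillus high against vehicle, 0 of 9 were called with 54 libraries (1.33%) and 2 with 52 (13.8%), TFPI higher and PLAU lower. In Zizyphi Semen high against vehicle, 0 of 9 were called with 54 libraries (3.66%) and 5 with 52 (22.1%), TFPI and PLAUR higher and FGA, TFPI2 and PLAU lower. The TFPI calls among these were made against the vehicle libraries that led to its choice, and nothing is read from them. Without TFPI the calls were PLAU in Longan Arillus and PLAUR, FGA, TFPI2 and PLAU in Zizyphi Semen. With TFPI counted, leaving out any 1 of the 6 libraries in turn left 0 or 1 of the Longan Arillus calls and 2 or 3 of the Zizyphi Semen calls. For these zero counts with 54 libraries, 0, 1, 0, 2 and 3 genes had an unadjusted edgeR p below 0.05, and DESeq2 called 0, 1, 0, 0 and 0. With 52 libraries, the count of 0 in Schisandrae Fructus had 2 genes at an unadjusted p below 0.05 and 0 by DESeq2.

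Between the high and the low dose, Liriopis seu Ophiopogonis Tuber had 0 of 9 genes called with 54 libraries (0.0% of all genes) and with 52 (0.0%), with 2 and 4 at an unadjusted edgeR p below 0.05 and 0 by DESeq2 in both. The fibrinogen log2 differences there were -0.14 for FGA, -0.16 for FGB and -0.15 for FGG with 52 libraries. Each chain had its high-dose libraries below all low-dose libraries of that extract. Schisandrae Fructus had 0 of 8 called with 54 libraries (0.00561%, 1 at an unadjusted p below 0.05, 0 by DESeq2) and FGB lower with 52 (1.54%), at -0.14 (SE 0.04, adjusted p = 0.0359), a call that was lost without high replicate 2, high replicate 3, low replicate 1 or low replicate 3. Longan Arillus had F3 and PLAUR lower with 54 libraries, where 18.8% of all genes were called, and 0 of 9 with 52 (0.0878%, 4 at an unadjusted p below 0.05, 2 by DESeq2). Both calls were lost without low replicate 3, the one for PLAUR without high replicate 1 too, and 4 genes were called without low replicate 1. Longan Arillus and Zizyphi Semen at the high dose had 0 of 9 called with 54 libraries (0.0112%, 1 at an unadjusted p below 0.05, 0 by DESeq2) and with 52 (0.719%, 3 at an unadjusted p below 0.05, 0 by DESeq2). The median log2 difference of the 9 genes between high and low dose was -0.14 in Yijin-tang, -0.09 in Liriopis seu Ophiopogonis Tuber, -0.01 in Longan Arillus and -0.00344 in Zizyphi Semen with 52 libraries, and that of all genes tested lay between -0.00296 and 7.17e-04 over the 6 extracts. Over the 8 genes counted it was 0.12 in Soshiho-tang and -0.08 in Schisandrae Fructus.

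**Figure D5:**
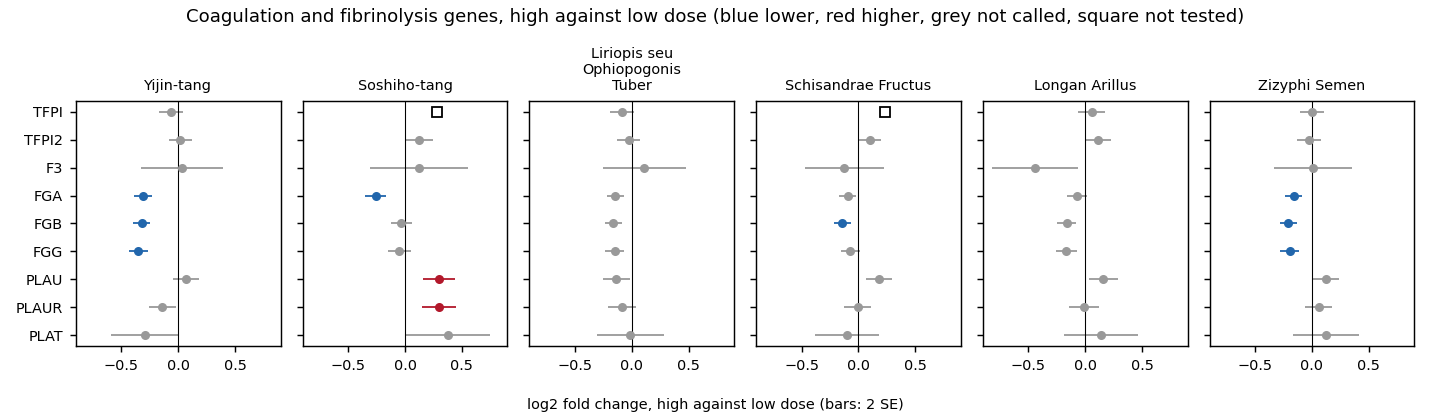
Log2 fold change of the 9 genes at the high against the low dose, 1 panel for each of the 6 replicated extracts, from edgeR's fit of 52 libraries, with bars of 2 SE. Blue points were called lower, red points higher, grey points were not called and open squares (TFPI in Soshiho-tang and Schisandrae Fructus) were not tested. The 3 fibrinogen chains are blue in Yijin-tang and Zizyphi Semen, and FGA alone of the 3 is blue in Soshiho-tang.

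The wider pathway was read from lists of procoagulant factors, anticoagulants, fibrinolysis genes, protease-activated receptors and acute phase genes. In the comparisons of high with low dose and 52 libraries, the genes called in at least 1 extract were SERPINE2 and THBD (higher) and PROCR and FGL1 (lower), 4 of the 33 tested, where 11.5% of all genes were called in at least 1 of these 6 comparisons. Over the 6 comparisons of a high dose with vehicle, 4.71% of all genes were called higher in at least 1 and 3.8% lower with 54 libraries, and 19.1% and 22.3% with 52. The counts below are to be set beside those shares, and nothing particular to a list is read from them. Of the 10 fibrinolysis genes 7 were tested, and over the 6 comparisons of a high dose with vehicle 1 were called higher and 0 lower with 54 libraries, and 2 and 3 with 52. SERPINE2, an inhibitor of thrombin and urokinase, was 63.6 CPM against 51.4 CPM in Zizyphi Semen high against vehicle, 0.31 (SE 0.08, adjusted p = 0.0294) with 54 libraries, and 0.20 (SE 0.05, adjusted p = 0.00845) and 0.20 (SE 0.04, adjusted p = 0.00468) in the high against the low dose of Soshiho-tang and Zizyphi Semen with 52. S100A10, a partner of the plasminogen-binding annexin A2, was called lower in Longan Arillus high against low with 54 libraries, -0.77 (SE 0.20, adjusted p = 0.0122), and was -0.02 (SE 0.05, adjusted p = 0.915) with 52.

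Of 10 anticoagulant genes 6 were tested, with 1 called higher and 1 lower against vehicle over the 6 high doses with 54 libraries, and 3 and 1 with 52. THBD, thrombomodulin, which turns thrombin toward activation of protein C, was 46.2 CPM against 32.7 CPM in Soshiho-tang high against vehicle, 0.50 (SE 0.12, adjusted p = 0.00615). PROCR, the protein C receptor, was 54.3 CPM against 66.8 CPM there, -0.30 (SE 0.07, adjusted p = 0.00615). The receptors of the protein C pathway moved in opposite directions in that comparison. ANXA5, an annexin that covers phosphatidylserine, was called lower in Longan Arillus high against low with 54 libraries, -0.45 (SE 0.12, adjusted p = 0.0115), and was -0.09 (SE 0.05, adjusted p = 0.539) with 52. Of 15 procoagulant factors 8 were tested and 0 were called against vehicle over the 6 high doses with 54 libraries (2 of the 48 pairs of a gene and a dose at an unadjusted edgeR p below 0.05, DESeq2 not run on the list), with 1 higher and 2 lower with 52. VKORC1, the vitamin K reductase, was called lower in Longan Arillus high against low with 54 libraries, -0.29 (SE 0.10, adjusted p = 0.0359), and was -0.10 (SE 0.06, adjusted p = 0.573) with 52.

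Of the 4 protease-activated receptors 3 were tested, with 1 called higher and 0 lower against vehicle over the 6 high doses with 54 libraries, and 3 and 0 with 52. F2R, the thrombin receptor, was called higher than vehicle with 54 libraries in the high doses of Yijin-tang, 0.29 (SE 0.06, adjusted p = 0.00724), Soshiho-tang, 0.36 (SE 0.07, adjusted p = 4.33e-04), and Schisandrae Fructus, 0.24 (SE 0.06, adjusted p = 0.0363). Against the low doses of the same extracts it was 0.11 (SE 0.05, adjusted p = 0.390), 0.10 (SE 0.06, adjusted p = 0.290) and 0.05 (SE 0.05, adjusted p = 0.758) with 52 libraries, not called in any of the 3. F2RL1, a receptor cut by factor VIIa and trypsin, was 0.25 (SE 0.08, adjusted p = 0.0216) in Longan Arillus high against low with 54 libraries and 0.11 (SE 0.06, adjusted p = 0.475) with 52. Of 15 acute phase genes 9 were tested, with 0 called higher and 1 lower against vehicle with 54 libraries, and 1 and 2 with 52. FGL1, a fibrinogen-like protein of the liver, was 5.72 CPM against 9.28 CPM in Zizyphi Semen high against vehicle, -0.70 (SE 0.13, adjusted p = 0.00159) with 54 libraries, and -0.40 (SE 0.10, adjusted p = 0.0219) against the low dose with 52. It was the 1 acute phase gene called lower in the latter comparison, beside the 3 fibrinogen chains. CEBPB and CEBPD, factors of the acute phase, were called lower in Longan Arillus high against low with 54 libraries, -0.87 (SE 0.26, adjusted p = 0.0200) and -0.70 (SE 0.21, adjusted p = 0.0216), and were 0.10 (SE 0.13, adjusted p = 0.846) and -0.02 (SE 0.12, adjusted p = 0.971) with 52. Over the 6 comparisons of high with low dose, the median log2 fold change of a list ranged from -0.06 to 0.19 for procoagulant factors, -0.10 to 0.05 for anticoagulants, -0.09 to 0.06 for fibrinolysis genes, -0.05 to 0.23 for protease-activated receptors and -0.24 to 0.23 for acute phase genes with 54 libraries, where the median of all genes tested lay between -0.00849 and 0. With 52 libraries the ranges were -0.07 to 0.19, -0.10 to -0.02, -0.03 to 0.06, -0.05 to 0.11 and -0.02 to 0.23 in the same order. In Longan Arillus alone the median of the receptors was 0.228 with 54 libraries and 0.0824 with 52, and that of the acute phase genes -0.244 and -0.00619.

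In Polygalae Radix high, 4 of the 7 tested fibrinolysis genes were lower than vehicle by 2-fold or more and 0 higher, where 8.15% of all genes tested were lower by that much. ANXA2 stood at 462 against 2275 CPM and S100A10 at 157 against 511 CPM. The median log2 ratio of that list was -1.30, beside 0.01 for all genes tested. FGL1 stood at 2.13 CPM and in Aucklandiae Radix high at 4.18 CPM, against 9.28 CPM in vehicle. F2RL2, a receptor related to F2R, stood at 119 CPM in Polygalae Radix high against 54.2 CPM.

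The genes most like each member over the means of the 19 replicated groups were taken from 13870 genes with at least 1 CPM on average, by Pearson correlation of log2 CPM. TFPI was most like PLEKHA1 (0.883), TMEM87B (0.848) and LMF1 (0.841). The groups include the high doses of Soshiho-tang and Schisandrae Fructus, whose TFPI levels led to the choice of the genes. Nothing is therefore read from the likeness of TFPI. PLAU was most like MIS12 (0.927), MVP (0.905) and C9orf64 (0.885). FGB and FGG were each the gene most like the other (0.939), and FGA was at 0.904 with PLS3, 0.877 with RHPN2 and 0.870 with GPR37. Without the 2 libraries that stood apart these values were 0.877 for PLEKHA1, 0.903 for MIS12, 0.948 for FGB with FGG, and for FGA 0.756 with PLS3, 0.832 with RHPN2 and 0.852 with GPR37, so that the order of the last 3 depends on the 2 libraries. TFPI2 was most like RPL3 (0.884, 0.791 without the 2), and PLAUR most like BBLN (0.936), a value that was 0.727 without the 2. F3 and PLAT, with few counts, reached at most 0.828 and 0.768. The groups share sets and the vehicle libraries are 1 group among them, so these values describe the libraries and carry no test.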

How the data were processed

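The authors deposited expected counts from RSEM, 1 table of 60675 genes by 60 libraries, in which 10.5% of values were not whole. Per the submitters' processing notes the tools were FastQC 0.11.9, Trim Galore 0.6.5, STAR 2.7.3a and RSEM 1.3.3 with hg38. Which annotation and strand setting were used is not given in the sources used here. Per the labels' protocols, reads were 100 bp pairs from a directional MGI kit. Expected counts were rounded and tested with edgeR 4.0.16 (quasi-likelihood, TMM, filterByExpr, R 4.3.3) across the 54 libraries of 19 groups, with 17826 genes and 36 contrasts, or 18228 genes in 52 libraries. DESeq2 1.42.0, other scaling, no filter, the compared groups alone, replicate blocks and left-out libraries were alternatives. Polygalae Radix and Aucklandiae Radix were compared with the vehicle mean as log2 of CPM plus 1. The genes and lists were chosen with earlier results of these data known. All 9 genes are described, and from each list up to 6 called at a high dose and averaging 1 CPM or more. A gene of the lists is not reported here. Replicates differed by more than counting noise (chi-square over its degrees of freedom was 1.86 or more). The fit was tested on simulated data.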

Additional observations from a re-analysis of the deposited data

Results flagged for a closer look

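In 3 genes the change from the low to the high dose differed between Yijin-tang and Soshiho-tang by a test of the difference itself, in edgeR's fit of 52 libraries. The log2 change in Yijin-tang minus that in Soshiho-tang was -0.29 for FGB (adjusted p = 0.00151), -0.30 for FGG (adjusted p = 0.00285) and -0.44 for PLAUR (adjusted p = 0.00329). With 54 libraries the adjusted p values in edgeR's test were 0.851, 0.897 and 1.000. These differences were not refitted with 1 library left out at a time, and Soshiho-tang had 2 libraries a dose. The PLAUR change in Soshiho-tang alone ranged from 0.23 to 0.36 when its libraries were left out in turn from the 52.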

How the results depend on the processing

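Of the counts of the 9 genes called in the 15 comparisons, 12 moved when the 2 libraries that stood apart were left out. Against vehicle the counts were then 3 in Yijin-tang, 2 in Soshiho-tang, 1 in Liriopis seu Ophiopogonis Tuber, 2 in Longan Arillus and 5 in Zizyphi Semen. The counts in Longan Arillus and Zizyphi Semen include TFPI, from which nothing is read against vehicle. Between high and low dose the counts without the 2 libraries were 3 in Yijin-tang, 3 in Soshiho-tang, 1 in Schisandrae Fructus, 0 in Longan Arillus and 3 in Zizyphi Semen. Between extracts they were 3 for Yijin-tang against Soshiho-tang and 1 for Liriopis seu Ophiopogonis Tuber against Schisandrae Fructus. With only the 2 compared groups in the fit, the counts against vehicle were 3 in Yijin-tang, 3 in Soshiho-tang, 1 in Liriopis seu Ophiopogonis Tuber, 1 in Schisandrae Fructus, 1 in Longan Arillus and 5 in Zizyphi Semen, those between doses 3 in Yijin-tang, 3 in Soshiho-tang, 0 in Longan Arillus and 3 in Zizyphi Semen, and those between extracts 3 and 1 for the same pairs. DESeq2 called 1 in Liriopis seu Ophiopogonis Tuber against vehicle, 2 in Yijin-tang high against low, 1 in Longan Arillus high against low and 1 in Yijin-tang against Soshiho-tang. Without the filter on low counts, 0 were called in Soshiho-tang and 0 in Longan Arillus high against low. Shares of all genes called are given only for edgeR's fits of 54 and 52 libraries. Nothing particular to the 9 genes is read from the counts in the other settings. Apart from the left-out libraries and the replicate block given below, the other settings gave counts within 1.5 times, and DESeq2's size factors in edgeR moved none of the 15. Of the 54 log2 ratios of the extracts with 1 library a dose, 14 moved without TMM factors and 0 with a pseudocount of 0.25 CPM. No direction of a called gene among the 9 turned under any of these settings.

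Leaving out 1 library at a time with 54 libraries gave 0 to 1 calls in Soshiho-tang high against low and 0 to 4 in Longan Arillus high against low. With 52 libraries it gave 0 to 1 in Longan Arillus and 2 to 3 in Zizyphi Semen against vehicle, 1 to 3 in Soshiho-tang, 0 to 1 in Schisandrae Fructus and 1 to 2 in Zizyphi Semen high against low, and 0 to 1 in Liriopis seu Ophiopogonis Tuber against Schisandrae Fructus. With 52 libraries DESeq2 called 2 in Longan Arillus high against low. Where a group was left with 1 library, that library was assumed to vary like the other groups. Alternatives run on the 52 libraries were added after the data were seen. The cause of these shifts was not tested.

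All pairs of same-numbered libraries correlated over 0.1 in 1 of 33 comparisons checked (Zizyphi Semen medium against low, 0.142 to 0.224). Of the 33, 18 were with vehicle, which has its own set. In Longan Arillus high against low, replicates 1, 2 and 3 correlated at 0.205, -0.0175 and 0.219. In Soshiho-tang medium against low both pairs correlated at -0.150, as 2 libraries a group make the values equal. With the replicate block, and with the replicate block within set, the count in Longan Arillus high against low was 1 with 54 libraries and 1 with 52, and the block moved no other of these counts by over 1.5 times. F3 and PLAT had too few counts to show small differences.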
